A study of Mus musculus with 6 samples.

Results

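The Hox genes encode homeodomain transcription factors that lie in 4 chromosomal clusters, HoxA to HoxD. Here 38 of them were followed in single-cell RNA-seq of mouse aorta, among 27998 genes in the deposited tables. The 38 genes were taken by name, with no cut on their level. The cells were chosen by measured levels of marker genes of stromal, muscle, endothelial and leukocyte cells, used as gates, and tests of those markers are not given. Hox genes were left out of the genes used for clustering.

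Within each cluster the genes are switched on in the embryo in the order in which they lie on the chromosome, and genes at the same place in different clusters form paralogue groups. Low-numbered groups are used from the hindbrain and pharyngeal arches backwards, middle groups in the thorax, and high-numbered groups in the lumbar, sacral and tail regions and in the limbs. Adult fibroblasts and vascular smooth muscle keep part of this code, so that the highest-numbered gene a cell transcribes is widely used as a mark of its position along the body. In the arch and ascending aorta, where much of the smooth muscle comes from neural crest and second heart field, few Hox genes of middle or high number are known to be used; smooth muscle of the descending aorta comes largely from mesoderm of the trunk.

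Aortas of C57B/6J mice of 18 weeks were taken after a high-fat diet (HFD, 3 samples) or a normal diet (control, 3 samples). The tissue label reads aorta in all 6, and names neither a segment nor whether a sample was 1 animal or several, so p-values measure the spread between these samples. The tissue was digested with collagenase and DNase, passed through a 40-µm filter, lysed for red cells and captured with 10x Genomics 3′ chemistry, in which each molecule carries a unique molecular identifier (UMI). Cell barcodes of each sample carry 2 suffixes, which mark 2 gel-bead wells.

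After filters 58019 cells were used, with 41388034 to 83886418 UMIs per sample before filtering. Gates held 12456 muscle cells (1515 to 2557 per sample), 19595 stromal cells (1308 to 5938), 2519 endothelial cells (162 to 699) and 10696 leukocytes (92 to 4600). All 10 markers of muscle, of stromal and of endothelial cells were higher in their own class than in the others, which the gates fix. Between 26 and 127 cell barcodes were shared by any 2 samples. Control 3, HFD 3 and well 2 of HFD 1 stood apart from the rest in the Hox genes themselves, and the values below are given for each sample for that reason. Levels are given as counts per 1000000 UMIs (CPM) of the summed cells of a class in 1 sample, not divided by length, so they compare samples and classes for 1 gene and not 1 gene with another. Markers of other cells moved between samples too: summed cardiomyocyte markers in muscle cells, in CPM, gave 1114, 1391 and 151 in HFD 1, 2 and 3, against 765, 551 and 389.97 in control 1, 2 and 3. Summed erythroid markers in the same cells gave 754, 1532 and 3147 in HFD 1, 2 and 3, against 655, 865 and 3272 in control 1, 2 and 3.

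The HoxA genes studied span chr6:52162417-52260880 (10 genes), the HoxB genes chr11:96194316-96368256 (10), the HoxC genes chr15:102921103-103036852 (9) and the HoxD genes chr2:74668310-74765142 (9), on GRCm38. Exons of Hoxa2, Hoxa3, Hoxc5, Hoxc10, Hoxd3 and Hoxd4 overlap another gene on the same strand, and UMIs of these 6 may be split or lost between the overlapping genes. Promoter sequences from RefSeq (GRCm38.p6, 250 bases before to 50 after a start) were held for 22 of the 38 genes, with 24 starts. The promoters of 4 genes are shown because the results turn on them: Hoxa5 was read in every sample, Hoxa7 and Hoxa10 varied between samples, and Hoxd4 varied between cell classes. They are chr6:52204538-52204837, chr6:52218524-52218823 and chr6:52234890-52235189 on the minus strand for the HoxA genes, the last being 1 of 2 starts of Hoxa10, and chr2:74721728-74722027 on the plus strand for Hoxd4. Capitals mark TTTATG, the letters bound by Cdx factors, which switch on middle Hox genes in the embryo, read on both strands.
Hoxa5: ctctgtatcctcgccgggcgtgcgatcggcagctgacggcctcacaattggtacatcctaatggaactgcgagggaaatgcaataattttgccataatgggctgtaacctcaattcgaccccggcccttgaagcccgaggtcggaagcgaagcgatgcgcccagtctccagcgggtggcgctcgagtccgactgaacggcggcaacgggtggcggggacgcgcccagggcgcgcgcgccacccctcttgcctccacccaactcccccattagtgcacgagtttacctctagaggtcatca
Hoxa7: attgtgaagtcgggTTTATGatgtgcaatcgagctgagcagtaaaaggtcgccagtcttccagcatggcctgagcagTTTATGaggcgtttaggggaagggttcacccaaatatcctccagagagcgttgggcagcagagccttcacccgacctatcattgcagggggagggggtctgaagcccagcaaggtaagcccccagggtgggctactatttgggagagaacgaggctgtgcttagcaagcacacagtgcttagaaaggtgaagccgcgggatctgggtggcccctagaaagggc
Hoxa10: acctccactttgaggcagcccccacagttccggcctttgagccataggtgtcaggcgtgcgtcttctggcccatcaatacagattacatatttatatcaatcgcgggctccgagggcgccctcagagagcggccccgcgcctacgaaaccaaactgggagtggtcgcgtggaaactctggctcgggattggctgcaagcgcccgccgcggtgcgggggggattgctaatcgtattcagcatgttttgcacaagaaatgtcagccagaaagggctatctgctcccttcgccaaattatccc
Hoxd4: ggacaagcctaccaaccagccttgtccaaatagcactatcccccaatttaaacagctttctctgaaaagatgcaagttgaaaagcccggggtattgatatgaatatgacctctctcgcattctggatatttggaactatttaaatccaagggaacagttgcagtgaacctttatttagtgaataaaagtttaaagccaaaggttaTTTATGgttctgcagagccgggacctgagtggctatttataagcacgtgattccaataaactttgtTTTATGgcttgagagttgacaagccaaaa
TTTATG was in 5 of the 24 Hox promoters, those of Hoxa7, Hoxb8, Hoxd3, Hoxd4 and 1 start of Hoxd11, and in 3893 of 32851 promoters of all genes (11.9%). The Hox and Pbx composite TGATTNAT, read on both strands, was in 2 of the 24 Hox promoters, those of Hoxa2 and the other start of Hoxd11, and in 1058 promoters of all genes (3.22%). None of the 24 Hox promoters held both, and a match is a description of these letters only.

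At least 1 UMI was read for 34 of the 38 genes in muscle cells, 34 in stromal cells, 30 in endothelial cells and 29 in leukocytes. Hoxb13 and Hoxc12 were at 0 in muscle, stromal and endothelial cells alike. At least 60 UMIs were read for 24 genes in muscle, 24 in stromal, 17 in endothelial cells and 5 in leukocytes. All Hox UMIs together came to 25647 in muscle, 24498 in stromal and 4645 in endothelial cells, against 1087 in leukocytes. For a gene with no UMI in a sample, the limit that a count of 0 allows (3 UMIs) lay between 0.156 and 0.290 CPM in muscle, 0.107 and 0.543 in stromal and 1.06 and 2.88 in endothelial cells.

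Summed over paralogue groups, the 6 samples were alike in groups 1 to 5 and far apart in groups 9 to 13. For groups 1 to 5 muscle cells gave, in CPM, 178, 153 and 234 in HFD 1, 2 and 3, against 208, 188 and 138 in control 1, 2 and 3, the highest sample 1.69 times the lowest. For groups 6 to 8 the muscle sums were 37, 7.95 and 229 in HFD 1, 2 and 3, against 15.7, 36 and 201 in control 1, 2 and 3, a range of 28.9 times. Groups 9 to 13 gave 31.7, 1.82 and 22.7 in HFD 1, 2 and 3, against 2.29, 0.62 and 199 in control 1, 2 and 3, a range of 321 times. HFD 3 and control 3 were both high in groups 6 to 8, and control 3 alone was high in groups 9 to 13, with HFD 1 and HFD 3 between it and the other 3 samples. The high samples lay on both diets. Control 3 read 199 CPM (95% interval 190.4 to 208, 2060 UMIs), against 0.62 CPM (95% interval 0.284 to 1.18, 9 UMIs) in control 2. In such a sum over cells, fewer cells that transcribe a gene and less RNA of it per cell cannot be told apart. Intervals here and below are exact Poisson or binomial ones and cover counting error only.

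**Figure D1:**
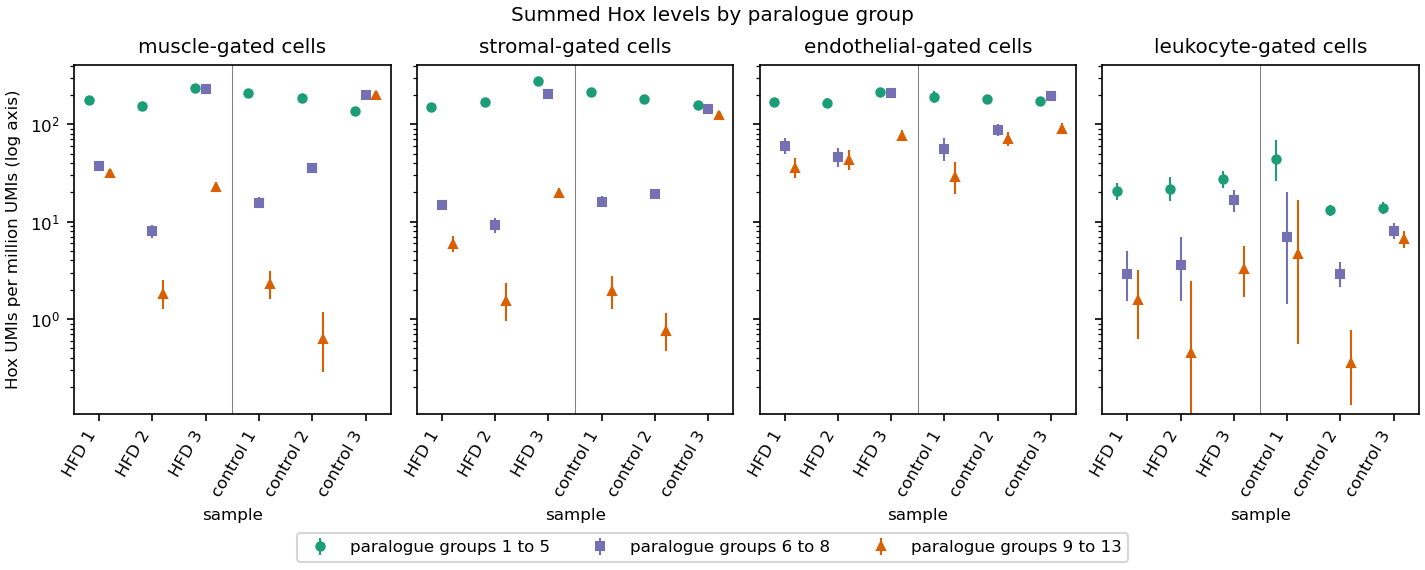
Summed Hox levels (CPM, log axis) of paralogue groups 1 to 5, 6 to 8 and 9 to 13 in circles, squares and triangles, for each sample in muscle, stromal, endothelial and leukocyte cells, with high-fat diet (HFD) samples left of control samples and exact 95% Poisson intervals as bars. Groups 1 to 5 stay within 1.69 times between samples in muscle cells, while groups 9 to 13 spread over 321 times.

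Stromal cells, gated on fibroblast markers, had the same 2 samples on top. Their groups 1 to 5 gave 150.03, 169.8 and 278 in HFD 1, 2 and 3, against 213, 181 and 156 in control 1, 2 and 3, a range of 1.85 times. Groups 6 to 8 gave 14.7, 9.23 and 207 in HFD 1, 2 and 3, against 16.1, 19.4 and 144 in control 1, 2 and 3, a range of 22.4 times. Groups 9 to 13 gave 5.95, 1.55 and 19.8 in HFD 1, 2 and 3, against 1.93, 0.752 and 123 in control 1, 2 and 3, a range of 164 times. Control 3 was again the highest in groups 9 to 13, and HFD 3 was next. In all endothelial cells together the spread was smaller: groups 1 to 5 gave 168, 166 and 215 in HFD 1, 2 and 3, against 193, 181 and 174 in control 1, 2 and 3, a range of 1.3 times. Their groups 6 to 8 gave 60.3, 45.9 and 209.7 in HFD 1, 2 and 3, against 55.6, 87.8 and 196 in control 1, 2 and 3, a range of 4.57 times, and HFD 3 and control 3 were again the highest pair. Groups 9 to 13 gave 35.6, 43 and 76.7 in HFD 1, 2 and 3, against 28.8, 70.4 and 90.4 in control 1, 2 and 3 in these cells, a range of 3.14 times. Within the endothelial cluster led by Vwf, described below, groups 9 to 13 gave 18, 4.88 and 147 in HFD 1, 2 and 3, against 15.9, 26.5 and 79.1 in control 1, 2 and 3, so the smaller spread did not hold there. The cluster led by Gpihbp1 gave 10.8, 11.1 and 25.3 in HFD 1, 2 and 3, against 11.8, 12.7 and 60.1 in control 1, 2 and 3. The cluster led by Ccl21a gave 163, 136 and 159 in HFD 1, 2 and 3, against 146, 171 and 173 in control 1, 2 and 3. The pooled endothelial values include this cluster, whose share of the cells differed between samples. In leukocytes, which serve as the background of free RNA, groups 9 to 13 gave 1.56, 0.447 and 3.26 in HFD 1, 2 and 3, against 4.62, 0.354 and 6.64 in control 1, 2 and 3.

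Of the muscle cells' Hox UMIs, groups 9 to 13 made up 12.9, 1.12 and 4.67 in HFD 1, 2 and 3, against 1.01, 0.276 and 37 in control 1, 2 and 3, in percent. By chromosomal cluster, the HoxC genes varied most between samples: the highest muscle sum was 165 times the lowest for HoxC, 19.9 times for HoxD, 3.41 times for HoxA and 2.52 times for HoxB. In stromal cells these ranges were 30.7 times for HoxC, 6.88 times for HoxD, 2.67 times for HoxA and 2.74 times for HoxB. In endothelial cells they were 6.93 times for HoxC, 1.84 times for HoxD, 2.28 times for HoxA and 2.42 times for HoxB.

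**Figure D2:**
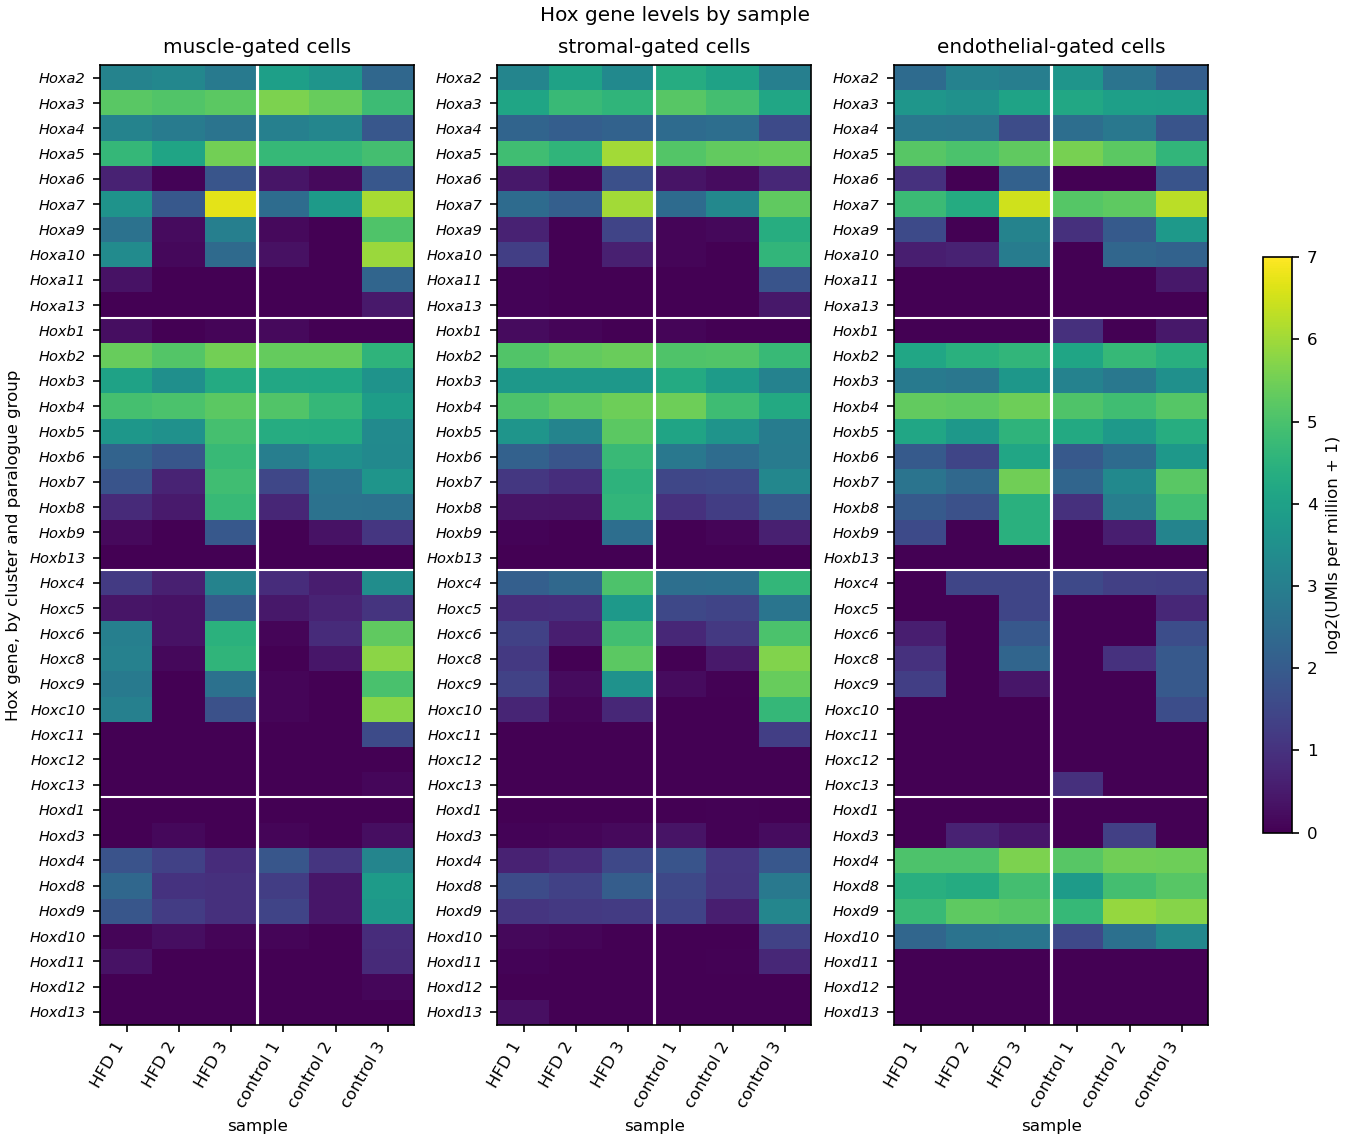
Level of each Hox gene (colour, log2 of CPM plus 1) in muscle, stromal and endothelial cells of each sample, with high-fat diet samples left of control samples and genes in order of chromosomal cluster and paralogue group. Most genes of groups 2 to 5 on HoxA and HoxB are read in all 6 samples, and in muscle cells genes of groups 9 to 13 are read mainly in control 3, with HFD 1 and HFD 3 next.

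Among groups 1 to 5, Hoxa2 specifies the second pharyngeal arch and Hoxa3 the third, from which arch arteries and thymus form. Hoxa2 gave 7.75, 8.36 and 6.21 CPM in HFD 1, 2 and 3, against 14.3, 11.6 and 4.06 CPM in control 1, 2 and 3 in muscle cells. In stromal cells it gave 8.04, 15.4 and 9.06 in HFD 1, 2 and 3, against 19.1, 15.2 and 7.06 in control 1, 2 and 3. Control 1 was the highest and control 3 the lowest in both classes, so this anterior gene ran opposite to groups 9 to 13 in control 3. Hoxa3 gave 36.1, 33.1 and 36.6 in HFD 1, 2 and 3, against 47.8, 40.3 and 26.8 in control 1, 2 and 3 in muscle cells. Stromal cells gave 16.2, 25.6 and 22.7 in HFD 1, 2 and 3, against 35.2, 29.1 and 16.6 in control 1, 2 and 3 for Hoxa3. The diets overlapped, and the highest sample was again control 1. Endothelial cells gave 11.9, 10.6 and 15.8 in HFD 1, 2 and 3, against 17.3, 14.4 and 14 in control 1, 2 and 3.

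Hoxb2 and Hoxb3 pattern the hindbrain and its neural crest, and Hoxb4 is best known from blood stem cells. Hoxb2 gave 40.7, 33.6 and 44.8 CPM in HFD 1, 2 and 3, against 40.0, 40.0 and 22.7 CPM in control 1, 2 and 3 in muscle cells and 33, 38.7 and 41 in HFD 1, 2 and 3, against 32.7, 33.2 and 25.5 in control 1, 2 and 3 in stromal cells. Its lowest sample was control 3 in both classes. Hoxb3 gave 15.5, 10.2 and 18.4 in HFD 1, 2 and 3, against 17.4, 17.2 and 11.1 in control 1, 2 and 3 in muscle cells. Stromal cells gave 12.3, 12.3 and 12.4 in HFD 1, 2 and 3, against 18.3, 13.4 and 7.6 in control 1, 2 and 3 for Hoxb3, and control 3 was the lowest there, HFD 2 in muscle cells. Hoxb4 gave 29.3, 31.6 and 36.7 in HFD 1, 2 and 3, against 33.2, 24.3 and 13.8 in control 1, 2 and 3 in muscle cells. For Hoxb4, stromal cells gave 32, 37.7 and 42.6 in HFD 1, 2 and 3, against 43.2, 27.1 and 17.9 in control 1, 2 and 3. In endothelial cells Hoxb4 gave 38.6, 37.7 and 42.6 in HFD 1, 2 and 3, against 32.6, 27.8 and 34.9 in control 1, 2 and 3. There the 3 HFD samples lay above the 3 controls without overlap, and Hoxb4 was the 1 Hox gene of 15 tested in endothelial cells of which this held, where 20.4% of all genes tested did not overlap. Hoxa4 was low, with 7.69, 6.55 and 5.42 in HFD 1, 2 and 3, against 7.35, 8.34 and 2.7 in control 1, 2 and 3 in muscle cells.

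Hoxa5 is needed for lung and cervical to upper thoracic vertebrae, and Hoxb5 is known from enteric neural crest. Hoxa5 gave 24.2, 16.1 and 44.9 CPM in HFD 1, 2 and 3, against 24.6, 25 and 28.8 CPM in control 1, 2 and 3 in muscle cells. In stromal cells Hoxa5 gave 28.1, 23 and 63.8 in HFD 1, 2 and 3, against 34, 38.7 and 40.7 in control 1, 2 and 3. HFD 3 was the highest in both, and the other 5 samples lay between 16.1 and 28.8 in muscle cells. Hoxb5 gave 12, 10.5 and 29.4 in HFD 1, 2 and 3, against 19.3, 18.7 and 9.27 in control 1, 2 and 3 in muscle cells. Stromal cells gave 11.6, 7.98 and 36.5 in HFD 1, 2 and 3, against 16.1, 11.3 and 6.69 in control 1, 2 and 3 for Hoxb5, and HFD 3 was the highest sample in both classes. Hoxc4, which with Hoxc5 opens the HoxC cluster, gave 1.28, 0.52 and 7.7 in HFD 1, 2 and 3, against 0.865, 0.482 and 9.85 in control 1, 2 and 3 in muscle cells. Hoxc4 in stromal cells gave 3.32, 4.14 and 31.9 in HFD 1, 2 and 3, against 4.85, 4.98 and 23.7 in control 1, 2 and 3. HFD 3 and control 3 stood above the other samples in both classes. Hoxc5 gave 0.857, 0.886 and 12.5 in HFD 1, 2 and 3, against 1.85, 1.72 and 5.61 in control 1, 2 and 3 in stromal cells, with the same 2 samples on top.

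Groups 6 to 8 shape the thoracic skeleton. Hoxa7 gave 11, 2.81 and 103 CPM in HFD 1, 2 and 3, against 4.51, 13.2 and 67.1 CPM in control 1, 2 and 3 in muscle cells. In stromal cells Hoxa7 gave 4.5, 3.32 and 64.8 in HFD 1, 2 and 3, against 4.42, 8.59 and 38.4 in control 1, 2 and 3, and in endothelial cells 26.2, 18.8 and 89.4 in HFD 1, 2 and 3, against 34.5, 37.7 and 76.7 in control 1, 2 and 3. HFD 3 and control 3 were the 2 highest samples in all 3 classes. Hoxc6 gave 7.05, 0.26 and 21.4 in HFD 1, 2 and 3, against 0.0618, 0.827 and 37.8 in control 1, 2 and 3 in muscle cells. For Hoxc6, stromal cells gave 1.55, 0.517 and 28.5 in HFD 1, 2 and 3, against 0.713, 1.22 and 31.1 in control 1, 2 and 3. Hoxc8 gave 7.37, 0.104 and 22.9 in HFD 1, 2 and 3, against 0, 0.345 and 54.1 in control 1, 2 and 3 in muscle cells. Control 3 was the highest sample for Hoxc6 and Hoxc8 in muscle and HFD 3 the next, with HFD 1 after it. Stromal cells gave 1.23, 0 and 36.8 in HFD 1, 2 and 3, against 0, 0.394 and 50.1 in control 1, 2 and 3 for Hoxc8.

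The HoxB genes of groups 6 to 8 separated HFD 3 from control 3. Hoxb6 gave 3.72, 2.65 and 25.2 CPM in HFD 1, 2 and 3, against 6.92, 10.3 and 9.08 CPM in control 1, 2 and 3 in muscle cells. Hoxb7 gave 2.5, 0.623 and 27.9 in HFD 1, 2 and 3, against 1.79, 5.65 and 11.5 in control 1, 2 and 3 in muscle cells, and Hoxb8 gave 0.769, 0.416 and 25.3 in HFD 1, 2 and 3, against 0.679, 5.24 and 5.12 in control 1, 2 and 3. HFD 3 was the highest sample for all 3, and control 2 and control 3 were close together in muscle cells for Hoxb6 and Hoxb8. In stromal cells Hoxb6 gave 3.54, 2.59 and 25.6 in HFD 1, 2 and 3, against 5.99, 4.55 and 6.51 in control 1, 2 and 3. Hoxb7 in stromal cells gave 1.18, 0.886 and 22.1 in HFD 1, 2 and 3, against 1.78, 1.9 and 8.5 in control 1, 2 and 3. Hoxb8 in stromal cells gave 0.321, 0.295 and 23.4 in HFD 1, 2 and 3, against 0.999, 1.43 and 2.9 in control 1, 2 and 3. Here, too, HFD 3 was above control 3 for each gene. In endothelial cells Hoxb7 gave 5.44, 4.12 and 43.6 in HFD 1, 2 and 3, against 3.84, 8.92 and 35.6 in control 1, 2 and 3, where HFD 3 and control 3 were the high pair. Hoxb8 gave 2.97, 2.35 and 20.8 in HFD 1, 2 and 3, against 0.959, 6.94 and 28.4 in control 1, 2 and 3 in endothelial cells, and control 3 was the higher of that pair.

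Groups 9 and 10 act at the thoracic to lumbar levels. Hoxa9 gave 5.25, 0.156 and 7.08 CPM in HFD 1, 2 and 3, against 0.124, 0 and 32.4 CPM in control 1, 2 and 3 in muscle cells. Hoxa10, a regulator of lumbar vertebrae and of the uterus, gave 9.42, 0.104 and 4.32 in HFD 1, 2 and 3, against 0.247, 0 and 60.6 in control 1, 2 and 3. Control 2 had no UMI of either gene, which allows up to 0.207 CPM. Control 3 was the highest sample for both. Hoxc9 gave 6.34, 0 and 5.11 in HFD 1, 2 and 3, against 0.0618, 0 and 31 in control 1, 2 and 3 in muscle cells. Hoxc10 gave 7.3, 0 and 2.36 in HFD 1, 2 and 3, against 0.0618, 0 and 53.2 in control 1, 2 and 3 there. The order was control 3, then HFD 1, then HFD 3 for Hoxc9, Hoxc10 and Hoxa10. In stromal cells Hoxc9 gave 1.61, 0.148 and 10.8 in HFD 1, 2 and 3, against 0.143, 0.0358 and 40.7 in control 1, 2 and 3. Hoxc10 in stromal cells gave 0.643, 0.0739 and 0.723 in HFD 1, 2 and 3, against 0, 0 and 24.2 in control 1, 2 and 3. Hoxa9 in stromal cells gave 0.589, 0 and 1.71 in HFD 1, 2 and 3, against 0.0713, 0.107 and 19.7 in control 1, 2 and 3, and control 3 was the highest sample for each of these 3 genes. Hoxa10 in stromal cells gave 1.45, 0 and 0.525 in HFD 1, 2 and 3, against 0.0713, 0 and 23.2 in control 1, 2 and 3.

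The highest-numbered genes were nearly confined to control 3 among these samples. Hoxa11, which patterns the sacral region and forearm, gave 0.256 in muscle cells of HFD 1 and 3.86 in those of control 3, with no UMI in the other 4 samples. Hoxc11 gave 2.03 in muscle and 1.45 in stromal cells of control 3 and no UMI in those classes of the other 5 samples. Hoxa13, which acts at the tail end and in the hand and foot, gave 0.386 in muscle cells of control 3, on 4 UMIs in all. Hoxd9 gave 2.69, 1.35 and 0.943 CPM in HFD 1, 2 and 3, against 1.73, 0.345 and 12.4 CPM in control 1, 2 and 3 in muscle cells, with HFD 1 second to control 3. Hoxd8 gave 4.04, 1.04 and 0.943 in HFD 1, 2 and 3, against 1.42, 0.345 and 13.4 in control 1, 2 and 3 in muscle cells. Hoxd4 gave 2.43, 1.56 and 0.865 in HFD 1, 2 and 3, against 2.66, 1.1 and 8.01 in control 1, 2 and 3 there. Control 3 was the highest sample for these 3 HoxD genes too, and the other 5 samples stayed at or below 4.04. Hoxa6, Hoxb9 and Hoxd10 were read at up to 2.7, 2.83 and 0.869 in muscle cells and up to 2.3, 4.73 and 1.63 in stromal cells, each highest in HFD 3 or control 3. The remaining genes with few UMIs (Hoxb1, Hoxd1, Hoxd3, Hoxd11 to Hoxd13, Hoxc13) stayed below 1 CPM in each sample's muscle and stromal cells.

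The 2 gel-bead wells of a sample did not always agree. In HFD 1, muscle cells of well 1 gave 0.198 CPM for groups 9 to 13 and those of well 2 gave 46.8 (710 and 1847 cells). Groups 1 to 5 gave 189 and 172 in the same wells. So the level of groups 9 to 13 in HFD 1 came from well 2, with similar levels of groups 1 to 5 in both wells. In control 3 the muscle values for groups 9 to 13 were 195 and 199 (107 and 1408 cells), and the stromal values 244 and 105. In HFD 3 the muscle values were 26.2 and 17.6. Both wells of control 3 and of HFD 3 were above both wells of HFD 2, control 1 and control 2. Groups 6 to 8 in muscle cells of control 2 gave 39.1 in well 1 and 6.02 in well 2.

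**Figure D3:**
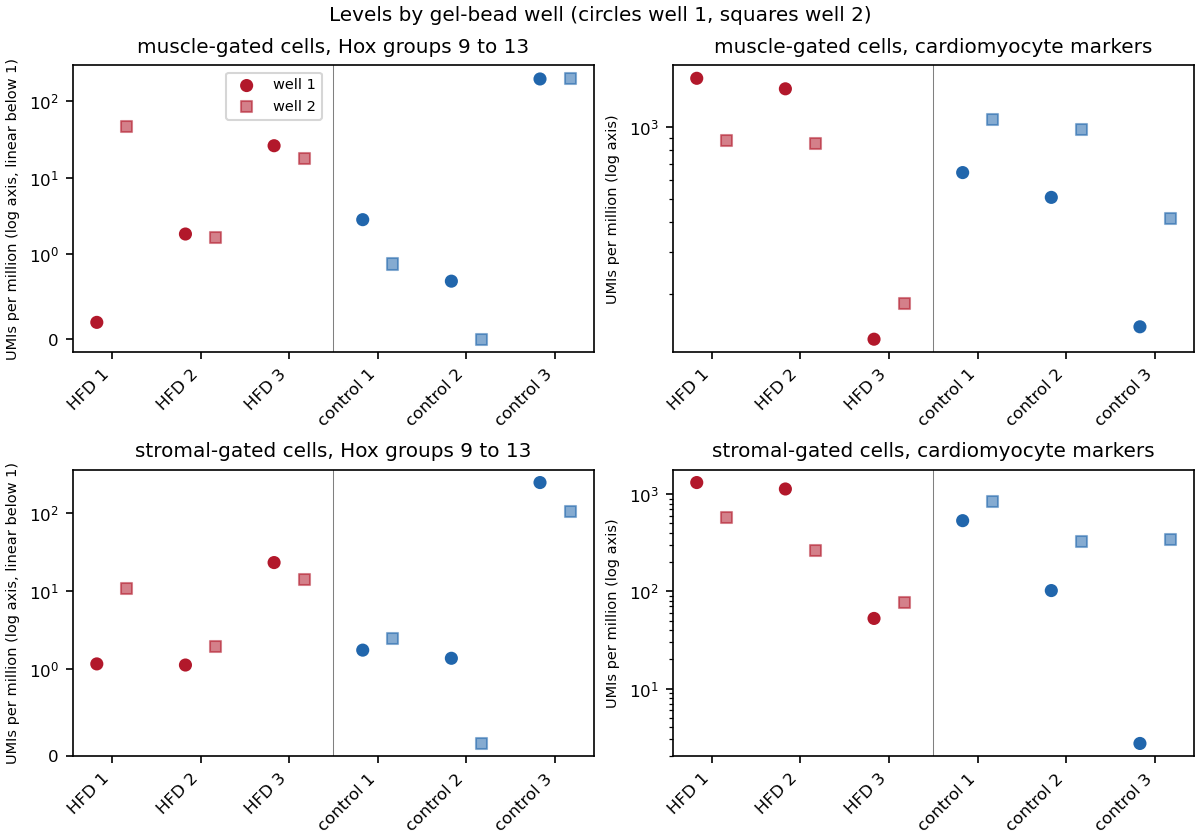
Summed Hox levels (CPM, log axis, linear below 1) of groups 9 to 13 and summed cardiomyocyte markers (log axis) in muscle and stromal cells by sample and gel-bead well, circles for well 1 and squares for well 2, high-fat diet in red left of control in blue. HFD 1 muscle cells gave 0.198 for groups 9 to 13 in well 1 and 46.8 in well 2.

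Heart genes moved between wells and samples beside the Hox genes. Summed cardiomyocyte markers in HFD 1 muscle cells gave 1601 in well 1 and 882 in well 2. In stromal cells of control 3 they gave 2.72 in well 1 and 343 in well 2. Tbx20, a heart and outflow tract transcription factor, gave 0 and 96.2 in those 2 wells. Over samples, cardiomyocyte markers in stromal cells gave 954, 661 and 61.3 in HFD 1, 2 and 3, against 615, 217 and 298 in control 1, 2 and 3. HFD 3 was the lowest sample in all 3 classes, and in muscle cells control 3 was next. Pericyte markers in muscle cells were highest in control 3, with 1367, 619.7 and 1660.4 in HFD 1, 2 and 3, against 639, 679 and 3608 in control 1, 2 and 3. Skeletal muscle markers stood out in control 1, with 29.9, 117 and 101 in HFD 1, 2 and 3, against 2138, 96.4 and 34 in control 1, 2 and 3 in muscle cells. The part of these genes in the Hox values was not tested. Neither was the stretch of aorta that each sample or well held, which the labels do not give and which cannot be told apart from other differences between samples.

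Counted by cell at a fixed depth of 2000 UMIs, the shares of muscle cells with a UMI of groups 9 to 13 were 5.67, 0.171 and 4.35 in HFD 1, 2 and 3, against 0.377, 0.203 and 31.1 in control 1, 2 and 3, in percent. In control 3 this was 470 of 1510 cells (31.1%, 95% interval 28.8 to 33.5%), against 4 of 1971 cells (0.203%, 95% interval 0.0553 to 0.519%) in control 2. Stromal shares were 1.3, 0.50 and 3.86 in HFD 1, 2 and 3, against 0.351, 0.159 and 18.2 in control 1, 2 and 3. Mature leukocytes, in which these genes are largely silent, gave 0.227, 0 and 0.552 in HFD 1, 2 and 3, against 1.19, 0.0778 and 1.32 in control 1, 2 and 3, with 0 of 401 cells in HFD 2 allowing a share of up to 0.748%. The muscle and stromal shares of control 3, HFD 1 and HFD 3 lay above the leukocyte share of their own sample. Those of HFD 2 and control 2 did so by little: they were at most 0.50%, on 4 muscle cells each. In control 1 both shares lay below the leukocyte share, which was 1 of 84 cells. Unthinned medians were 5690.5 to 8225.5 UMIs per muscle cell and 2907.5 to 3756.5 per leukocyte. Endothelial shares were 4.85, 5.44 and 11.5 in HFD 1, 2 and 3, against 3.31, 10.4 and 14.3 in control 1, 2 and 3, above the leukocyte shares in every sample. These endothelial cells include the Ccl21a-led cluster, in which the summed level of groups 9 to 13 was high in every sample.

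Genes of different clusters were read in the same cells. Among muscle cells of control 3 with a HoxC UMI of groups 9 to 13, 23.8% also had a HoxA UMI of those groups, against 15.1% of the other muscle cells of that sample. In HFD 1 these shares were 14.1% and 2.84%, and in HFD 3 they were 12% and 1.91%. The stromal shares were 12.5% and 5.91% in control 3 and 3.23% and 0.317% in HFD 3. In each of these samples the cells with a HoxC UMI had the higher share; counts per sample were between 2 and 53 cells with both, and no test was run. Among the 5 clusters of muscle cells, the level of groups 9 to 13 ran between 1.79 and 176 CPM, and 1194 of the 1445 cells of the highest cluster came from control 3.

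Diet was compared in each class with edgeR's quasi-likelihood test on the summed counts, with Benjamini-Hochberg adjustment over all genes tested. No Hox gene passed an adjusted p of 0.05 in stromal cells (20 of 38 tested), muscle cells (22 tested) or endothelial cells (15 tested). The share of all genes called was 0.00723% in stromal cells, 0% in muscle cells and 0.211% in endothelial cells. No Hox gene had an unadjusted p under 0.05 in any of the 3 classes, where 1625, 1285 and 1597 genes did in stromal, muscle and endothelial cells. DESeq2 called no Hox gene either. Of the stromal genes, Hoxd4 had the smallest p, with a log2 difference of HFD minus control of −0.94 (SE 0.52, adjusted p = 0.517). Its means were 1.08 ± 0.667 in HFD samples and 2.12 ± 0.85 in controls (SD, n = 3 each). In muscle cells Hoxb4 differed by 0.45 (SE 0.25, adjusted p = 0.607). In endothelial cells Hoxd9 differed by −0.55 (SE 0.30, adjusted p = 0.436), on means of 32.8 ± 6.17 in HFD samples and 45.1 ± 17.7 in controls (SD, n = 3 each). These differences were within the spread between samples.

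The 4 next genes by p in stromal cells were Hoxb2 (0.25), Hoxa3 (−0.39), Hoxd9 (−1.37) and Hoxb8 (2.23), given as log2 differences. In muscle cells they were Hoxd4 (−1.29), Hoxd9 (−1.57), Hoxa2 (−0.43) and Hoxc10 (−2.55). In endothelial cells they were Hoxb4 (0.28), Hoxa3 (−0.24), Hoxd8 (−0.29) and Hoxd4 (−0.18). Leaving out a sample numbered 3 turned the sign of several: without control 3, Hoxc10 in muscle cells came to 6.37 and Hoxd9 to 0.74, and without HFD 3, Hoxb8 in stromal cells came to −2.45, each still short of an adjusted p of 0.05. Without control 1, Hoxd9 in endothelial cells was called, at −0.81 with an adjusted p of 0.0228, in a fit that called 568 genes. Over all samples Hoxd9 gave 129 CPM in the Ccl21a-led endothelial cluster described below, against 14.5 in the Gpihbp1-led and 4.13 in the Vwf-led one. The Ccl21a-led cluster made up 12.8, 12.5 and 12.6% of gated endothelial cells in HFD 1, 2 and 3. In control 1, 2 and 3 it made up 8.64, 22.6 and 16.2%. The part of these shares in the Hoxd9 difference was not tested. The median log2 difference of the Hox genes tested was −0.01 in stromal, −0.22 in muscle and −0.09 in endothelial cells, against −0.0024, −0.015 and 5.9e-05 over all genes. No Hox gene in stromal cells (of 20) and none in muscle cells (of 22) had 3 HFD sums all above or all below the 3 control sums, where 17.4% and 15.2% of all genes did.

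The diet difference was also compared between muscle and stromal cells. None of 29 Hox genes tested passed an adjusted p of 0.05 there, where 0% of all 14834 genes did. At an unadjusted p under 0.05 there were 3 Hox genes, Hoxa10, Hoxa9 and Hoxb6, among 506 genes in all. Hoxa10 differed by 1.37 (SE 0.31, adjusted p = 1.00) on the log2 scale, muscle minus stromal.

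Cell classes of the same sample were compared with sample as a block, and most genes of any kind differed between them. In muscle against stromal cells 7 Hox genes were higher and 5 lower of 29 tested, where 28.7% of all genes tested were higher and 30% lower, 58.6% in all, so the count is not above the background. Hoxa3, Hoxa4, Hoxa7, Hoxa9, Hoxa10, Hoxb7 and Hoxc10 were higher in muscle. All class comparisons summed the 2 wells of a sample, and classes were spread unequally over wells. In control 2, wells 1 and 2 held 1777 and 207 muscle cells, against 2690 and 3248 stromal cells. Hoxa7 there gave 14.2 and 3.01 CPM in muscle, against 15.1 and 2.2 CPM in stromal cells. In HFD 1, HFD 3 and control 3 Hoxa7 was higher in muscle cells of both wells. The part of the wells in the class differences was not tested. In CPM, Hoxa10 averaged 12.5 ± 23.9 in muscle and 4.2 ± 9.31 in stromal cells (SD, n = 6 each), a log2 difference of 2.18 (SE 0.28, adjusted p = 0.000307). Hoxc10 averaged 10.5 ± 21.1 in muscle and 4.28 ± 9.79 in stromal cells, a log2 difference of 1.93 (SE 0.43, adjusted p = 0.00718). Hoxa4 averaged 6.34 ± 2.05 in muscle and 3.65 ± 0.985 in stromal cells, a log2 difference of 0.84 (SE 0.11, adjusted p = 0.000216), and was higher in muscle in 6 of 6 samples. These fits are within samples, so the wide SDs over samples of Hoxa10 and Hoxc10 do not enter them. In HFD 2, control 1 and control 2, however, both genes were at or below 0.343 CPM in each well of either class. Their differences thus rest mainly on HFD 1, HFD 3 and control 3, and in HFD 1 well 1 had no UMI of either gene. In control 3, Hoxc10 gave 55.9 in muscle and 46.3 in stromal cells of well 1, and 52.9 and 20.9 in well 2.

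Hoxc4, Hoxc5, Hoxa2, Hoxa5 and Hoxb4 were lower in muscle than in stromal cells. Hoxc4 averaged 3.45 ± 4.19 in muscle and 12.2 ± 12.4 in stromal cells, a log2 difference of −1.99 (SE 0.27, adjusted p = 0.000296). Hoxc5 averaged 0.937 ± 1.05 in muscle and 3.91 ± 4.58 in stromal cells, a log2 difference of −1.90 (SE 0.19, adjusted p = 4.17e-05). In these sums over wells the classes split within 1 cluster: Hoxc4 and Hoxc5 were lower in muscle and Hoxc10 higher. Hoxc6, Hoxc8 and Hoxc9 did not pass, at 0.24, 0.39 and 0.02. The wells of control 3 differed for Hoxc9. Well 1 gave 24.3 CPM in muscle and 106 CPM in stromal cells (107 and 142 cells), and well 2 gave 31.7 and 30.7 CPM. Hoxc5 shares exons with Hoxc10 in the annotation. The calls of Hoxb7 and Hoxb4, and of Hoxa7 without both samples numbered 3, were lost when samples were left out, Hoxb7 without any of HFD 1, HFD 3, control 2 or control 3 and Hoxb4 without control 1.

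Endothelial cells differed from stromal cells in 16 of 25 Hox genes tested, 7 higher and 9 lower, where 27.2% of all genes were higher and 31.6% lower, 58.9% in all, so the count is near the background. Of the 7 higher genes 4 were HoxD genes, and of the 9 lower ones 5 were HoxC genes, while HoxA and HoxB genes lay on both sides. Hoxd4 averaged 39.1 ± 6.84 in endothelial and 1.6 ± 0.889 in stromal cells (SD, n = 6 each), a log2 difference of 4.61 (SE 0.22, adjusted p = 7.02e-09), higher in 6 of 6 samples. Hoxd9 averaged 38.9 ± 13.6 in endothelial and 2.36 ± 2.95 in stromal cells, a log2 difference of 4.35 (SE 0.51, adjusted p = 0.000414). Hoxd8 and Hoxd10 differed by 3.21 (SE 0.24, adjusted p = 2.51e-07) and 4.79 (SE 0.73, adjusted p = 0.000185). By sample, Hoxd4 in endothelial cells gave 32.1, 31.8 and 47.9 CPM in HFD 1, 2 and 3, against 35.5, 44.1 and 43.2 CPM in control 1, 2 and 3, and in stromal cells 0.589, 0.813 and 1.84 in HFD 1, 2 and 3, against 2.5, 1.15 and 2.71 in control 1, 2 and 3. Hoxd9 in endothelial cells gave 25.7, 37.1 and 35.5 in HFD 1, 2 and 3, against 24.9, 58 and 52.2 in control 1, 2 and 3. The endothelial levels of Hoxd4 lay above every stromal level without overlap.

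Hoxa7, Hoxb7 and Hoxb9 were the other genes higher in endothelial cells, with log2 differences of 1.47, 1.52 and 2.63. Hoxc6 averaged 0.912 ± 1.25 in endothelial and 10.6 ± 14.9 in stromal cells, a log2 difference of −3.64 (SE 0.30, adjusted p = 2.88e-07). Hoxc4, Hoxc5, Hoxc8 and Hoxc9 were lower, at log2 differences of −3.44, −3.26, −3.42 and −3.61. Of groups 2 and 3, Hoxa2, Hoxa3, Hoxb2 and Hoxb3 were lower, at −1.06, −0.89, −0.87 and −0.72. The call of Hoxa7 was lost without control 2, that of Hoxb3 without any of HFD 1, HFD 2, control 1 or control 2, and that of Hoxc9 without both samples numbered 3.

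Against muscle cells, endothelial cells had 6 Hox genes higher and 10 lower of 26 tested, where 28.4% and 30.3% of all genes were, 58.7% in all. Hoxd4, Hoxd8, Hoxd9, Hoxd10, Hoxb7 and Hoxb9 were higher, Hoxd4 with a log2 difference of 3.86 (SE 0.45, adjusted p = 0.000277) and Hoxd10 of 4.58 (SE 0.53, adjusted p = 9.14e-06). Hoxc6, Hoxc8, Hoxc9 and Hoxc10 were lower, Hoxc10 at −5.02 (SE 0.41, adjusted p = 1.94e-06) on 6 endothelial UMIs, all in control 3. Hoxa3 was lower at −1.52 (SE 0.12, adjusted p = 2.23e-07), and Hoxa2, Hoxa4, Hoxb2, Hoxb3 and Hoxb6 made up the rest. Calls lost without 1 sample or both samples numbered 3 were those of Hoxa2, Hoxa4, Hoxb6 and Hoxc9. The median log2 difference of the Hox genes tested was 0.38 for muscle against stromal, 0.12 for endothelial against stromal and −0.58 for endothelial against muscle cells, against −0.01, −0.03 and −0.01 over all genes.

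Within the endothelial cells the HoxD genes were uneven. Of 3 endothelial clusters, found without Hox genes, the one led by Ccl21a, Mmrn1, Prox1 and Flt4, genes known from lymphatic vessels, gave summed HoxD levels, in CPM, of 329, 284 and 297 in HFD 1, 2 and 3, against 276, 361 and 315 in control 1, 2 and 3. The one led by Vwf, Gkn3, Bmx and Gja5, genes known from arteries and large vessels, gave 16.3, 11.4 and 54 in HFD 1, 2 and 3, against 27.2, 14.9 and 39.6 in control 1, 2 and 3. The one led by Gpihbp1 and Car4, genes known from capillaries, gave 31, 43.6 and 70.9 in HFD 1, 2 and 3, against 55.2, 44.5 and 80.5 in control 1, 2 and 3. Every sample's Ccl21a-led level was above all levels of the other 2 clusters, on both diets. They held 575, 700 and 2063 cells in that order, and the Ccl21a-led one made up 14.5% of gated endothelial cells (8.64% to 22.6% by sample). As clusters are compared here, no test was run.

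In the Ccl21a-led cells Hoxd9 gave 136, 110.03 and 121 in HFD 1, 2 and 3, against 125, 157 and 129 in control 1, 2 and 3. Hoxd4 gave 92.2, 84.5 and 78.9 in HFD 1, 2 and 3, against 83.2, 114 and 80.1 in control 1, 2 and 3 there. Hoxd8 gave 74.9, 61.7 and 70.2 in HFD 1, 2 and 3, against 44.6, 71.4 and 76.6 in control 1, 2 and 3. Hoxd10 gave 25, 25.5 and 26.3 in HFD 1, 2 and 3, against 20.8, 14.3 and 29 in control 1, 2 and 3 in these cells and no UMI in any sample's Vwf-led cells. Each of these 4 genes was read in all 6 samples of the cluster, and the diets overlapped for each. Hoxb9 in the Vwf-led cells gave 6.53, 0 and 78.4 in HFD 1, 2 and 3, against 0, 1.66 and 27.5 in control 1, 2 and 3, with HFD 3 the highest and control 3 next, the pair that was also high in groups 6 to 8 of muscle cells.

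**Figure D4:**
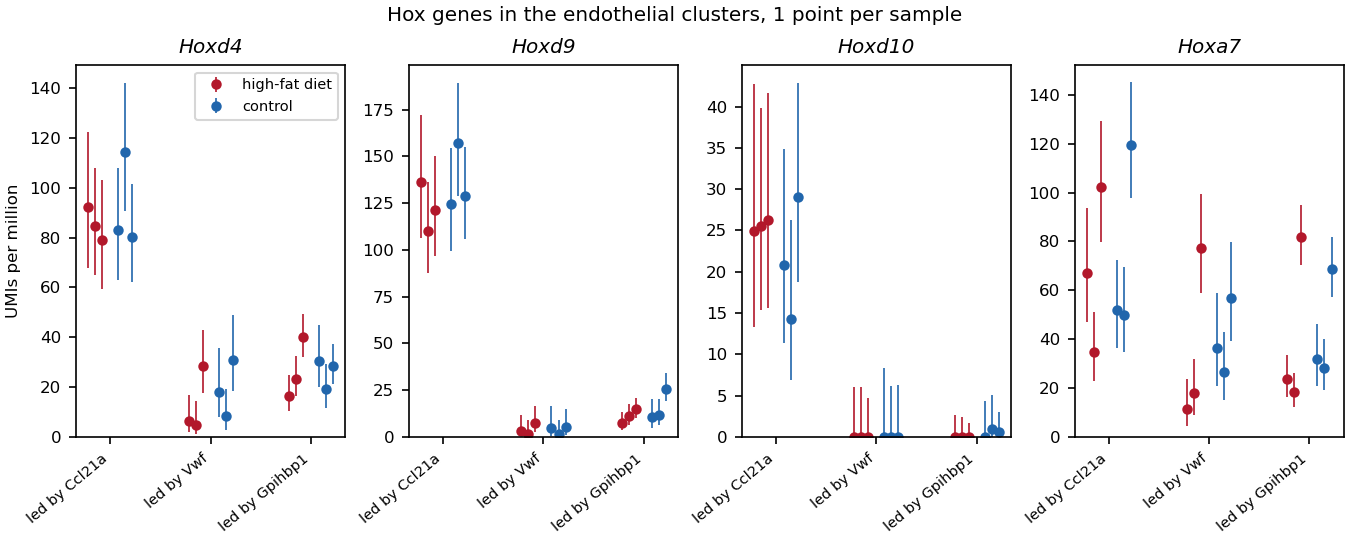
Levels (CPM) of Hoxd4, Hoxd9, Hoxd10 and Hoxa7 in 3 endothelial clusters named by their leading genes, each point 1 sample with its exact 95% Poisson interval, high-fat diet in red left of control in blue. The 3 HoxD genes are higher in the Ccl21a-led cluster than in the other 2 in every sample, while Hoxa7 overlaps between the clusters.

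To find genes that go with the posterior Hox genes within a sample, cells with at least 1 UMI of groups 6 to 13 at 2000 UMIs were summed apart from cells without one and compared with sample as a block. The Hox genes of groups 6 to 13 chose the cells and are not among the results. A cell without such a UMI at this depth may still transcribe these genes: in control 3 muscle cells the share was 52.1% at 2000 UMIs and 83.7% unthinned. In control 1 the shares were 2.91% of muscle and 3.33% of stromal cells, against 2.38% of leukocytes (2 of 84 cells). Both shares lay further above the leukocyte share in the other samples. The part of free RNA in the cells with such a UMI was not tested. Most genes named below were picked for changing alike in 6 samples, so that agreement is no support for them. CPM in this comparison are on edgeR's TMM-normalized library sizes. The cells with such a UMI numbered 162, 50 and 960 in HFD 1, 2 and 3 and 76, 181 and 418 in control 1, 2 and 3 among stromal cells, so HFD 3 and control 3 carry most of them. Of the 960 in HFD 3, 898 had a UMI of groups 6 to 8 and 112 had one of groups 9 to 13. Of the 418 in control 3 these were 267 and 228. In stromal cells edgeR's quasi-likelihood test called 76 of 11411 genes (0.666%), 38 higher (0.333%) and 38 lower (0.333%), and DESeq2 called 15; 775 genes had an unadjusted p under 0.05. Without 1 sample the count was 43 to 69, lowest without control 3 (43), and 44, 46 and 50 without HFD 2, HFD 1 and control 1. The 10 genes of groups 1 to 5 that were tested did not pass in either class.

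The wells of a sample differed in how many cells had such a UMI. In muscle cells of HFD 1 they were 10 of well 1 and 237 of well 2, and in stromal cells of control 2 they were 136 of well 1 and 45 of well 2. Tbx20 in stromal cells of control 2 gave 2.38 CPM in well 1 and 47.4 CPM in well 2, and Hand2 gave 9.38 and 28.1 CPM. The comparison was therefore repeated within wells, with sample and well as the block and wells of at least 10 cells on each side, 12 of 12 in stromal and 10 of 12 in muscle cells. It called 97 genes in stromal cells, 34 higher and 63 lower, and 40 in muscle cells, 13 higher and 27 lower. Wells of 1 sample are not separate samples, so the p-values of that fit also count wells. Of the genes named here, Oasl2 and Rbp4 in stromal cells and Ankrd1, Efhd1, Mpp6 and Pi15 in muscle cells lost their call in it. Hhip was at 1.14, Tcf21 at −1.26 and Tbx20 at −2.72 in stromal cells, and Hand2 at −1.54 in muscle cells.

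In stromal cells with a posterior Hox UMI, Hhip, an inhibitor of hedgehog ligands, was higher, at a log2 difference of 1.24 (SE 0.17, adjusted p = 3.48e-10). It gave 33.8, 51.8 and 62 CPM in HFD 1, 2 and 3 and 82.5, 29.1 and 38.3 CPM in control 1, 2 and 3 in the cells with a Hox UMI, against 15.8, 28.1 and 20.2 CPM and 34.5, 23 and 17.4 CPM in the cells without one. Fmod, a collagen-binding proteoglycan, was higher by 0.91 (SE 0.11, adjusted p = 4.61e-12), and F3, the starter of coagulation known as tissue factor, by 0.86 (SE 0.09, adjusted p = 1.6e-16). Fbln7 and Smpd3 were higher by 0.80 and 0.60, Epha3, an ephrin receptor, by 0.70, and Aldh1a3, an enzyme that makes retinoic acid, by 0.79 (SE 0.13, adjusted p = 1.31e-06). All 7 were called by DESeq2 and stayed called without each sample in turn, but Hhip, Epha3 and Aldh1a3 lost their call without both samples numbered 3.

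Tcf21, a transcription factor of epicardial and adventitial fibroblasts, was lower in the stromal cells with a posterior Hox UMI, at −1.36 (SE 0.18, adjusted p = 2.17e-10). It gave 39.9, 25.9 and 1.55 CPM in HFD 1, 2 and 3 and 23.6, 14.5 and 65.5 CPM in control 1, 2 and 3 in the cells with a Hox UMI, against 62.6, 49.8 and 6.49 CPM and 57.9, 42.3 and 192 CPM in the cells without one. It was called by DESeq2 and without each sample, and its call was lost without both samples numbered 3. Adamtsl2, a microfibril-associated protein, was lower, at −1.48 (SE 0.23, adjusted p = 3.25e-07), and Ifi27l2a, an interferon-induced gene, at −0.48 (SE 0.06, adjusted p = 1.09e-11); both were called by DESeq2 and without each sample too. Tbx20 had the lowest value, −2.87 (SE 0.29, adjusted p = 6.97e-18), but was lower in 5 of 6 samples and not called by DESeq2 (adjusted p = 0.778). Of the other genes named by the same rule, Meox1, Pgf, Pdlim3, Oasl2, Socs2, Spon2 and Zeb1 were lower and Wfdc1, Tmeff2 and Gpnmb higher. Among these 10 Tmeff2 was the only one that DESeq2 called, and Meox1 the only one that stayed called without each sample. Pgf lost its call without any of 5 samples, Oasl2 and Wfdc1 without any of 4, and Gpnmb without any of 3. Pdlim3 and Socs2 lost theirs without HFD 2 and without control 3, Spon2 without HFD 1, and Zeb1 and Tmeff2 without control 3. Several of these genes lead stromal clusters: F3, Fmod, Fbln7 and Hhip the F3-led one, and Meox1, Tbx20, Adamtsl2 and Tcf21 the Meox1-led one. For groups 6 to 8 the F3-led cluster gave 333, 58.3 and 226 CPM in HFD 3, control 2 and control 3. The Meox1-led cluster gave 314, 14.3 and 24.4 CPM in those samples. The comparison does not separate such subtypes of stromal cells, and their part in it was not tested.

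**Figure D5:**
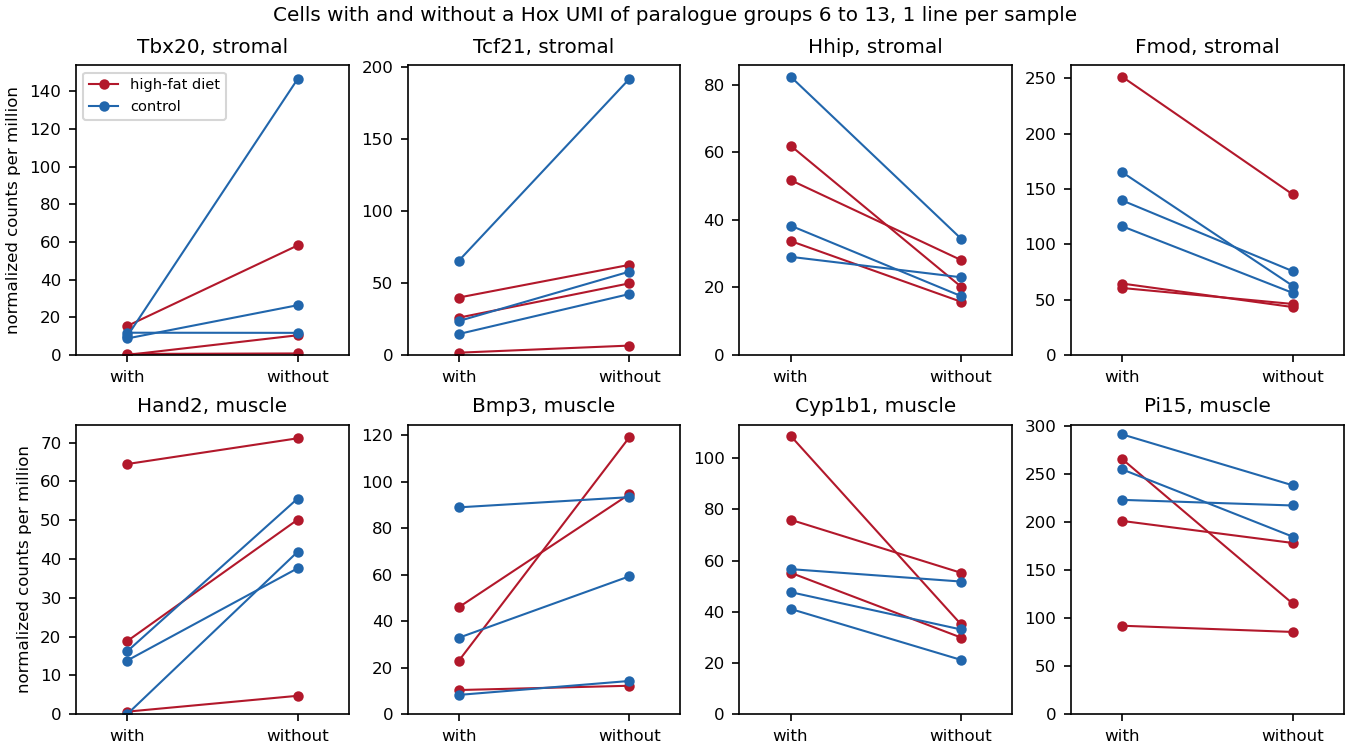
Normalized CPM of Tbx20, Tcf21, Hhip and Fmod in stromal cells and of Hand2, Bmp3, Cyp1b1 and Pi15 in muscle cells, in cells with (left) and without (right) a UMI of Hox paralogue groups 6 to 13, each line 1 sample, high-fat diet in red and control in blue. Hhip lies higher and Tcf21 lower in the stromal cells with such a UMI in all 6 samples, for which they were picked.

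In muscle cells the same comparison called 49 of 10823 genes (0.453%), 15 higher (0.139%) and 34 lower (0.314%), and DESeq2 called none; 649 genes had an unadjusted p under 0.05. Thinned to 1000 UMIs in place of 2000, the comparison called 2 genes. The muscle cells with such a UMI numbered 247, 47 and 778 in HFD 1, 2 and 3 and 54, 119 and 786 in control 1, 2 and 3. The count of calls ran from 20 to 54 without 1 sample, and was 20, 23, 28 and 32 without HFD 2, HFD 1, control 1 and control 3. Hand2, a transcription factor of the heart and branchial arches, was lower in the muscle cells with a posterior Hox UMI, at −1.47 (SE 0.24, adjusted p = 2.18e-06). It gave 18.8, 64.5 and 0.649 CPM in HFD 1, 2 and 3 and 16.2, 0 and 13.8 CPM in control 1, 2 and 3 in the cells with a Hox UMI, against 50.1, 71.1 and 4.73 CPM and 55.6, 41.8 and 37.6 CPM in the cells without one. It was the 1 named gene of 15 that stayed called without each sample. Cyp1b1, a cytochrome P450, was higher by 0.81 (SE 0.14, adjusted p = 2.36e-05) and lost its call without HFD 1. Igfbp2, Bmp3, Enpp2, Uchl1, Dsp, Emb, Ankrd1 and Mpp6 were lower and Pi15 and Efhd1 higher, and each lost its call without at least 1 sample. Tnnt2, a cardiomyocyte troponin, was lower too, at −0.84 (SE 0.12, adjusted p = 1.51e-07), beside the cardiomyocyte markers given above, and lost its call without HFD 2 and without control 1. Genes called in both classes were Hand2 and Tagln2, in the same direction, which is 2.63% of the stromal and 4.08% of the muscle calls. Tagln2 falls outside the naming rule and was named after its values were seen.

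Genes that work with or around the Hox genes were taken in lists. Of 9 TALE homeobox cofactors, which bind DNA together with Hox proteins, 0 were higher and 4 lower in muscle than in stromal cells, where 28.7% of all genes were higher and 30% lower, Meis2 at −0.33 (SE 0.08, adjusted p = 0.00643). In endothelial against stromal cells 1 was higher and 6 lower of 9, where 27.2% and 31.6% of all genes were, Meis1 at −2.47 (SE 0.14, adjusted p = 6.38e-09). Of 22 regulators tested among Cdx, Polycomb and Trithorax genes, which set and keep Hox expression, 8 were higher and 6 lower in muscle than in stromal cells, near the shares of all genes, the Polycomb genes Suz12 and Bmi1 at 0.73 (SE 0.07, adjusted p = 2.92e-05) and 0.69 (SE 0.08, adjusted p = 9.14e-05). Of 17 retinoic acid genes, whose ligand switches on anterior Hox genes in the embryo, 1 was higher and 12 lower in muscle than in stromal cells. The ligand-making enzymes Aldh1a2 and Aldh1a3 were lower at −2.79 (SE 0.19, adjusted p = 5e-06) and −4.46 (SE 0.30, adjusted p = 1.09e-05). Median log2 differences in muscle against stromal cells were −0.25 for the cofactors, 0.12 for the regulators and −1.0 for the retinoic acid genes, against −0.01 over all genes.

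None of the 3 lists had a member called for diet in any class. The lists of heart and outflow tract factors, of cranial and neural crest mesenchyme factors, and of trunk, limb and mesenchyme factors had none either. Between stromal cells with and without a posterior Hox UMI, where 0.666% of all genes were called, 0 of 8 cofactors and 0 of 22 regulators were, and of 13 retinoic acid genes 2 were higher, Aldh1a3 and Rbp4, and 1 was lower. In that comparison 2 heart factors were lower of 11, Tbx20 and Hand2, and none higher. Of 18 trunk, limb and mesenchyme factors 2 were higher (Prrx1 and Nr2f2) and 2 lower (Tcf21 and Meox1). Prrx1 and Nr2f2 were higher in 4 of 6 samples, by 0.43 and 0.50. DESeq2 called neither of these, nor Hand2 or Rbp4 in stromal cells. Prrx1, Nr2f2 and Hand2 lost their call without control 3, Nr2f2 also without HFD 3, and Rbp4 kept its call in 1 of 6 fits that left out a sample. In muscle cells 1 heart factor of 10 was lower (Hand2), where 0.453% of all genes were called. Of 12 trunk, limb and mesenchyme factors 1 was higher there (Pax1, in 5 of 6 samples). Pax1 was not called by DESeq2 and lost its call without any of HFD 1, HFD 2 and control 1. None of the 5 cranial factors tested in either class was called. Of the markers of other cells, the stromal comparison called none of the 7 cardiomyocyte, 7 skeletal muscle, 6 pericyte and 4 erythroid genes tested, while in muscle cells 1 cardiomyocyte gene (Tnnt2) was lower and 1 pericyte gene (Kcnj8) and 1 erythroid gene were higher.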

How the data were processed

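The deposited tables hold raw UMI counts per gene and cell barcode, made by the authors with Cell Ranger 3.0 on mm10 per the submitters' processing notes. Cells with at least 300 genes and at most 20% mitochondrial counts were kept, 59413 of 62838. Scrublet scores above 0.25 marked 1394 doublets (2.35%), which were left out. Cells were gated by marker genes (score at least 0.3, next class at most 0.7 of it) and clustered on 2000 variable genes without Hox genes (scanpy 1.11.5, resolution 1). Counts of gated cells were summed per sample and class, and cells are not replicates. Tests were edgeR 4.0.16 quasi-likelihood fits (TMM, filter on low counts, adjusted over all genes tested), with sample as a block between classes; DESeq2 1.42.0 was an alternative. They were tested on simulated data first, with changes set in genes of at least 20 CPM only. The diet fits recovered 59% of 2-fold changes in stromal and muscle cells and 67% in endothelial cells. Of 4-fold changes they recovered 97% in stromal and muscle cells and 95% in endothelial cells. Hox genes below 20 CPM are not covered by this. The Hox genes and gene lists were chosen with earlier results of these data known. Hox genes with at least 60 UMIs in a class (up to 12) or called in a comparison are named with their values, as are the 5 smallest p-values for diet, the 10 genes with the largest rise and the 10 with the largest fall of at least 20 CPM between cells with and without a posterior Hox UMI that changed alike in 6 samples, called members of lists, and up to 4 per list. Some genes that this rule names are counted in their lists and not reported here by name. Sequences are from RefSeq. Leukocytes (92 cells) and endothelial cells (162) of control 1 were the smallest sums.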

Additional observations from a re-analysis of the deposited data

How the results depend on the processing

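Of 247 planned values for Hox genes under diet, 241 kept their direction and side of the threshold, 5 changed sign and 1 was called. For cell classes 515 of 555 did and 40 lost their call; for cells with and without a posterior Hox UMI 359 of 588 did, 228 lost their call and 1 changed sign. Without the sample block, 3, 8 and 7 Hox genes were called for muscle against stromal, endothelial against stromal and endothelial against muscle cells. Leaving out each sample gave 0 to 0 calls for diet in stromal cells, 0 to 0 in muscle and 0 to 1 in endothelial cells, 11 to 14, 14 to 18 and 15 to 17 for the classes in the same order, 0 to 0 for the interaction, and 43 to 69 and 20 to 54 genes for the stromal and muscle cells with against without a posterior Hox UMI. That stromal count was 15 with DESeq2, 43 without both samples numbered 3, 26 at 1000 UMIs, 32 with at least 2 UMIs and 46 with groups 9 to 13 in control 3, HFD 1 and HFD 3 alone. The muscle count was 0 with DESeq2, 31 with the stricter gate, 21 with doublets kept, 2 at 1000 UMIs, 27 at 3000, 10 with at least 2 UMIs and 9 with groups 9 to 13 in those 3 samples. The cause of these changes was not tested. Signs of the diet difference turned for Hoxb2 in stromal cells in well 1 (−0.080), Hoxb8 in stromal cells without HFD 3 (−2.45) and without both samples numbered 3 (−2.03), Hoxd9 in stromal cells without control 3 (0.27) and without both (0.23), Hoxc10 in muscle cells without control 3 (6.37), Hoxd4 in muscle cells without both (0.13), Hoxd9 in muscle cells without control 3 (0.74) and without both (1.00), Hoxd4 in endothelial cells in well 2 (0.22), Hoxd8 there without control 3 (0.020) and in well 2 (0.29), and Hoxd9 there in well 2 (0.29). Leaving out each sample gave −2.45 to 2.79 for Hoxb8 and −1.98 to 0.27 for Hoxd9 in stromal cells, −4.12 to 6.37 for Hoxc10 and −2.13 to 0.74 for Hoxd9 in muscle cells, and −0.54 to 0.020 for Hoxd8 in endothelial cells. Pgf in stromal cells came to 0.050 with groups 9 to 13 and Efhd1 in muscle cells to −0.14 at 1000 UMIs. The range between samples of the share of muscle cells' Hox UMIs in groups 9 to 13 was 36.7 points and 32.3 to 37.5 under the alternatives. The samples share replicate numbers 1 to 3. By deviations from the mean of their diet, HFD 3 was the only HFD sample that correlated best with the control of its own number. This held in all 3 classes, with r of 0.229 in stromal, 0.371 in muscle and 0.0574 in endothelial cells. With 3 samples per diet this check cannot tell whether a number marks a shared batch, which the labels do not state. A fit with the replicate block called 0 Hox genes and 0 genes in each class. The alternatives with both samples numbered 3 left out, by well, with a sample and well block and with groups 9 to 13 were chosen after seeing the data. Depth limits genes with few UMIs.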
